A study of Mus musculus with 4 samples.

Results

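The genes described here are 10 components and feedback targets of the fibroblast growth factor (FGF) to ERK signalling pathway, chosen by name out of 37310 genes in the count table. They are the ligand gene *Fgf4*, the receptor genes *Fgfr1* and *Fgfr2*, the feedback inhibitor genes *Spry2*, *Spry4*, *Dusp4* and *Dusp6*, and the transcription factor genes *Etv4*, *Etv5* and *Egr1*. RNA was sequenced from HATX mouse embryonic stem cells (mESCs), a line that carries an *Xist* transgene under doxycycline control, grown on gelatin in serum with LIF and with no treatment stated. The WT group and the *Spen* KO group, which is clone 2 of a knockout made in the same line, had 2 libraries each, and both have a mixed genomic background by the labels. The study describes these cells as haploid and the knockout as a *Spen* deletion, and the comparison asks which genes change when this RNA-binding co-repressor is lost. Because the KO group is 1 clone, any other difference between that clone and the WT line is part of each comparison.

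FGF4 is the main FGF ligand that mESCs make for themselves, and it acts through FGFR1 and FGFR2, receptor tyrosine kinases that need heparan sulfate to bind it well. Activated receptors signal through the adaptors FRS2, GRB2 and GAB1 to RAS, RAF, MEK and finally ERK, a kinase whose activity prepares mESCs to leave the pluripotent state and whose FGF-driven activity in the early embryo favours primitive endoderm over epiblast. ERK in turn raises the genes of its own inhibitors, the Sprouty proteins and the dual-specificity phosphatases, and of the ETS factors *Etv4* and *Etv5*, so that the RNA of such targets is often read as a record of pathway activity.

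*Spen*, the targeted gene, had normalized counts (counts divided by DESeq2's size factors) of 3716 and 3047 in WT and 7797 and 6242 in the KO-labelled libraries. Its whole-gene counts were higher in the libraries labelled KO, and because a gene total cannot show which part of the gene is transcribed, these counts do not check the deletion. The groups are therefore named by their labels, and each direction below is that of the libraries labelled KO against WT. Total counts ranged from 36667685 to 61908422 per library, and between 21850 and 22591 genes had a count. The mESC identity on the labels was checked on 10 pluripotency markers, all of which were detected, with 2 higher and 0 lower by DESeq2 at an adjusted p under 0.05, which 17.5% and 16.7% of all tested genes passed in these directions, and summed normalized counts of 239969 to 244158 in WT and 248513 to 259803 in the KO-labelled libraries. The counts were also 2 and 0 by edgeR (19.4% and 21.6% of all genes it tested) and at an unadjusted p under 0.05 in DESeq2 (21.2% and 20.4%). Near-identical copies cover 15.9% of the exonic bases of *Nanog*, 17.0% of *Tdgf1*, 17.1% of *Pou5f1*, 39.3% of *Dppa5a* and 43.2% of *Zfp42*. Part of the counts of these markers, and of their sum, is therefore uncertain. Levels of different genes are compared in TPM (counts scaled by exonic length and by library size), always within a library, because the typical gene was 0.29 higher in log2 TPM in the KO-labelled libraries. Changes are given in normalized counts, where the median log2 fold change of all tested genes was 0.01.

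The bases just upstream of the transcription start are shown for 3 of the 10 genes, because *Dusp6* and *Fgfr2* fell most and *Spry2* is a feedback inhibitor of the same pathway that did not pass the test. The sequences are the 250 bases before the start in RefSeq (GRCm38.p6), read 5′ to 3′ on the gene's strand, and were found once each in mm9 with no mismatch, next to an annotated transcript start. In mm9 they lie at chr10:98725615-98725864 on the plus strand for *Dusp6*, chr7:137410323-137410572 on the minus strand for *Fgfr2* and chr14:106296037-106296286 on the minus strand for *Spry2*. Capitals mark GGAA or its reverse complement TTCC, the core letters that ETS factors such as ETV4 and ETV5 bind.
Dusp6: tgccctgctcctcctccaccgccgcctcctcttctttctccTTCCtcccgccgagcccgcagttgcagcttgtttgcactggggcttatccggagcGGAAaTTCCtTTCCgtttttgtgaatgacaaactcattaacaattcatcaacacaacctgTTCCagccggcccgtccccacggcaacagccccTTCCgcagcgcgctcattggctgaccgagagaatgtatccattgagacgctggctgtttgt
Fgfr2: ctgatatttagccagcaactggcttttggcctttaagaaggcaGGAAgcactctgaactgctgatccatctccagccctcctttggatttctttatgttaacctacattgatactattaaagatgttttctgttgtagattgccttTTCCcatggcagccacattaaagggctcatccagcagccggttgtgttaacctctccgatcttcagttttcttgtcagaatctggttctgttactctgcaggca
Spry2: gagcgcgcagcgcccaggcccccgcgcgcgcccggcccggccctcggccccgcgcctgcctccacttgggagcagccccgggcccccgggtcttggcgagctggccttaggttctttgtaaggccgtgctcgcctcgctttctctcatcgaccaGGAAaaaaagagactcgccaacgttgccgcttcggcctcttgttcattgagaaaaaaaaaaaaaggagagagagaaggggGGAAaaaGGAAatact
The *Dusp6* window held 6 matches, the *Fgfr2* window 2 and the *Spry2* window 3. These letters were present on either strand in 93.4% of 32851 RefSeq mouse promoter windows of the same length, with a median of 3 matches, so a match describes the sequence and not a binding site. The longer form CCGGAA or TTCCGG was in 12.03% of the windows and in none of the 6 windows listed for these genes. *Fgf4* had 0 matches of GGAA or TTCC, and *Etv5*, which is listed with a pair of starts, had 0 and 4. *Fgfr1*, *Spry4*, *Dusp4*, *Etv4* and *Egr1* were not among the RefSeq sequences used here.

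Of the 10 genes, 3 rose, 5 fell and 2 did not pass the test in the KO-labelled libraries. The genes that rose were *Spry4*, *Egr1* and *Etv4*, and those that fell were *Fgfr2*, *Dusp6*, *Etv5*, *Dusp4* and *Fgf4*, while *Fgfr1* and *Spry2* did not pass. Here and below "rose" and "fell" mean an adjusted p under 0.05 in DESeq2's Wald test, adjusted over all genes, a threshold that 17.5% of the 16750 tested genes passed in the higher direction and 16.7% in the lower (34.2% in all). At the thresholds of the study, a change of at least 2-fold with an adjusted p under 0.001, *Spry4* was higher and *Fgfr2* and *Dusp6* were lower, against 1.44% of all tested genes higher and 3.33% lower (4.77% in all). The median log2 fold change of the 10 genes was -0.20, and the single values ran from -2.84 to 1.01. The values of the WT libraries and the KO-labelled libraries did not overlap for 9 of the 10, *Spry2* being the exception, and 71.5% of all tested genes did not overlap either. Without WT replicate 1 or KO replicate 2 no gene of the 10 was higher at the thresholds of the study, since *Spry4* then had a log2 fold change of 0.97 or 0.995, just under 2-fold. The count of genes that fell was 3 without WT replicate 1, WT replicate 2 or KO replicate 1.

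**Figure D1:**
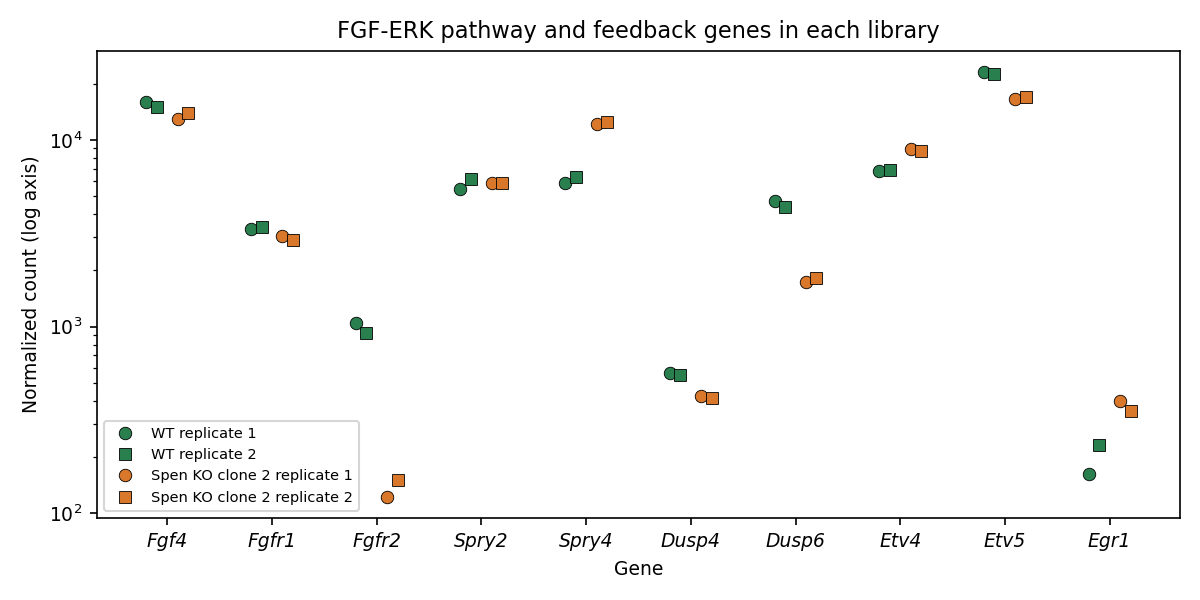
Normalized counts of the 10 genes on a log axis, with 1 point for each WT library and each KO-labelled library. The points of *Fgfr2* lie far apart between the groups, at 924.5 to 1046 in WT and 123 to 151 in the KO-labelled libraries, those of *Dusp6* and *Spry4* are clearly separated in opposite directions, and those of *Spry2* overlap.

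*Fgf4*, the ligand, was abundant in all libraries. Its normalized counts were 15870 and 15053 in WT and 12898 and 13853 in the KO-labelled libraries. All KO-labelled values lay below the WT values, although the gap between the groups was of the same order as the spread within them. The gene (ENSMUSG00000050917.4, mm9 chr7:152047291-152051148, plus strand) had a log2 fold change of -0.21 (SE 0.07) and DESeq2's adjusted p was 0.0124. The estimate stayed negative without each library in turn, from -0.26 to -0.15, and the call was lost in 3 of these 4 fits. The adjusted p was 0.231 without WT replicate 1 (-0.17), 0.0509 without WT replicate 2 (-0.24), 0.281 without KO replicate 1 (-0.15) and 0.0463 without KO replicate 2 (-0.26). In a bulk library, fewer cells that express a gene and less RNA per cell cannot be told apart, here and in all results below. *Fgf4* made up 74.96% ± 1.26 (SD, n = 2) of the summed TPM of 22 FGF genes in WT and 77.2% ± 0.13 in the KO-labelled libraries, and *Fgf17*, chosen for its share after its values were seen, made up most of the rest at 20.2% and 17.5%.

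*Fgfr2* was the gene that changed most of the 10. Its normalized counts were 1046 and 924.5 in WT and 123 and 151 in the KO-labelled libraries. Every KO-labelled value was far below every WT value. The mean fell from 985 ± 85.9 to 137 ± 20.0 (SD, n = 2), which is 7.18-fold, or -2.84 ± 0.18 (SE) on the log2 scale, with a DESeq2 adjusted p of 9.04e-57. The gene model (ENSMUSG00000030849.10, mm9 chr7:137305965-140315033, minus strand) spans a far longer stretch than most of its transcripts and shares 4.03% of its exonic bases with *Ctbp2* on the same strand, which could hold reads of either gene. *Fgfr1*, the other receptor gene of the 10 and the more abundant receptor of mESCs, did not pass the test. Its normalized counts were 3337 and 3398 in WT and 3051 and 2890 in the KO-labelled libraries. Groups did not overlap, and the log2 fold change was -0.18 with a 95% interval from -0.35 to -0.01 and a DESeq2 adjusted p of 0.0859, whereas edgeR's quasi-likelihood test gave 0.0353. *Fgfr1* (ENSMUSG00000031565.10, mm9 chr8:26624126-26686186, plus strand) shares 10.99% of its exonic bases with other gene models, among them a short model of the same name that had 0 counts in all libraries.

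The make-up of the receptor family differed between the groups. *Fgfr2* contributed 21.5% and 19.1% of the summed TPM of the 4 FGF receptor genes in WT and 3.39% and 4.40% in the KO-labelled libraries. *Fgfr1* contributed 66.4% and 68.0% in WT and 81.5% and 81.4% in the KO-labelled libraries. What remained belonged to *Fgfr3* and *Fgfr4*, whose normalized counts did not pass the test (DESeq2 adjusted p of 0.623 and 0.523). Each of these shares had no test of its own, and the shares of *Fgfr2* and of *Fgfr1* differed between the groups by more than they did between replicates.

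*Fgfr2* is also a receptor of extraembryonic cells, and some markers of such cells moved in the same libraries. Each marker count in this paragraph is to be read beside the 17.5% of all tested genes that rose and the 16.7% that fell. Of 10 primitive endoderm markers 8 could be tested, of which 1 rose, the basement membrane gene *Sparc*, and 4 fell, *Sox7*, *Lamb1*, *Col4a1* and *Gata4*. Their summed normalized counts were 19543 to 20677 in WT and 22629 to 22800 in the KO-labelled libraries, of which *Sparc* made up the largest part. *Sparc* was left out of a second sum after its values were seen. The sum of the other 9 was 7048 to 8095 in WT and 2995 to 3150 in the KO-labelled libraries. Of the defining factors, *Gata4* had 155 and 191 normalized counts in WT and 81.8 and 75.9 in the KO-labelled libraries. *Sox17* had 2.65 and 13.1 normalized counts in WT and 6.97 and 6.26 in the KO-labelled libraries, *Foxa2* had 5.30 and 15.2 against 1.74 and 0, and *Gata6* had 23.9 and 26.1 against 24.4 and 17.2. Of 10 trophoblast markers 6 could be tested, of which 2 rose, *Tfap2a* and *Ascl2*, and 4 fell, *Cdx2*, *Krt7*, *Krt8* and *Krt18*. Near-identical copies cover 76.3% of the exonic bases of *Krt8*, whose count is uncertain. Their summed normalized counts were 1440 to 1523 in WT and 894 to 977 in the KO-labelled libraries, with *Tpbpa* at 0 in all libraries and *Elf5* at 0 in the KO-labelled libraries. *Cdx2*, the transcription factor of trophoblast stem cells, had normalized counts of 68.9 and 56.6 in WT and 19.2 and 15.7 in the KO-labelled libraries. Log2 fold changes of the 6 tested trophoblast markers ran from -1.85 to 2.47, so the largest change in that list was a rise. What part cells of these kinds had in the fall of *Fgfr2* was not tested. Fibroblast and postimplantation epiblast markers gave 1 of 4 and 2 of 9 tested genes higher and 1 and 2 lower, with summed normalized counts of 278 to 309 and 34611 to 37302 in WT and 507 to 569 and 29021 to 29122 in the KO-labelled libraries.

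The Sprouty genes, whose proteins inhibit signalling between the receptor and RAF, moved apart from each other. *Spry4* had normalized counts of 5865 and 6299 in WT and 12098 and 12451 in the KO-labelled libraries. Both KO-labelled libraries lay far above both WT libraries. The mean rose from 6082 ± 306 to 12274 ± 250 (SD, n = 2), which is 2.02-fold, or 1.01 ± 0.07 (SE) on the log2 scale, with a DESeq2 adjusted p of 7.94e-42 (ENSMUSG00000024427.6, mm9 chr18:38745922-38760922, minus strand). *Spry2* had normalized counts of 5427 and 6141 in WT and 5890 and 5891 in the KO-labelled libraries. Both KO-labelled values fell inside the WT range. Its log2 fold change was 0.03 with a 95% interval from -0.14 to 0.19 and a DESeq2 adjusted p of 0.852, and the sign turned without WT replicate 1, at -0.056 (ENSMUSG00000022114.4, mm9 chr14:106291166-106296036, minus strand). In WT *Spry2* held 64.4% ± 0.79 (SD, n = 2) of the summed TPM of *Spry1*, *Spry2* and *Spry4* and *Spry4* held 30.8% ± 0.76, while in the KO-labelled libraries the shares were 50.3% ± 0.55 and 47.6% ± 0.45. *Spry1*, named here to complete the family, fell, with a log2 fold change of -0.84.

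The dual-specificity phosphatase genes *Dusp6* and *Dusp4* both fell. DUSP6 removes the activating phosphates of ERK in the cytoplasm, and DUSP4 acts on ERK and related kinases in the nucleus. *Dusp6* had normalized counts of 4715 and 4381 in WT and 1727 and 1822 in the KO-labelled libraries. No KO-labelled value came near a WT value. The mean fell from 4548 ± 236 to 1774 ± 67.3 (SD, n = 2), which is 2.56-fold, or -1.36 ± 0.09 (SE) on the log2 scale, with a DESeq2 adjusted p of 1.1e-50 (ENSMUSG00000019960.6, mm9 chr10:98725865-98730122, plus strand). Chromosome 10 as a whole had a median log2 fold change of -0.35 in these libraries, and with each gene's chromosome median removed *Dusp6* still had a log2 fold change of -1.01. *Dusp4* was less abundant, with normalized counts of 561 and 549 in WT and 422 and 414 in the KO-labelled libraries. These groups were apart by more than the replicates were from each other. The log2 fold change was -0.41 (SE 0.16) and DESeq2's adjusted p was 0.0358 (ENSMUSG00000031530.6, mm9 chr8:35870351-35882948, plus strand), and without each of the 4 libraries in turn the adjusted p lay between 0.229 and 0.270.

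*Dusp6* was not the most abundant ERK phosphatase gene of these cells. Among *Dusp4*, *Dusp5*, *Dusp6*, *Dusp7* and *Dusp9*, which were grouped as phosphatases that favour ERK, *Dusp9* held 71.1% of the summed TPM in WT and 78.6% in the KO-labelled libraries. *Dusp6* held 20.9% and 18.1% of it in WT and 10.4% and 10.3% in the KO-labelled libraries. *Dusp9*, named here for its share, had a log2 fold change of -0.31 (DESeq2 adjusted p of 0.00034). The share of *Dusp4* was 2.42% ± 0.16 (SD, n = 2) in WT and 2.50% ± 0.14 in the KO-labelled libraries, which is within the spread between replicates.

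The PEA3-type ETS factors *Etv4* and *Etv5*, which are transcribed in response to FGF and bind the core letters shown above, moved in opposite directions. *Etv5* was the most abundant of the 10 genes in WT, with normalized counts of 23065 and 22567, and had 16458 and 17034 in the KO-labelled libraries. All KO-labelled values were below all WT values, with small differences between replicates. The log2 fold change was -0.45 (SE 0.06), a 1.36-fold fall, and DESeq2's adjusted p was 1.05e-10 (ENSMUSG00000013089.8, mm9 chr16:22381382-22439792, minus strand). Near-identical copies elsewhere in the genome cover 15.8% of its exonic bases, so part of its count is uncertain. *Etv4* had normalized counts of 6813 and 6893 in WT and 8918 and 8749 in the KO-labelled libraries. Here the KO-labelled libraries were the higher ones and the groups did not overlap. The log2 fold change was 0.37 (SE 0.07), a 1.29-fold rise, and DESeq2's adjusted p was 1.8e-06 (ENSMUSG00000017724.8, mm9 chr11:101631056-101646685, minus strand). Their chromosomes were shifted in the same directions, with a median log2 fold change of -0.23 on chromosome 16 and 0.16 on chromosome 11. With the chromosome medians removed the log2 fold changes were -0.21 for *Etv5* (DESeq2 adjusted p of 0.00597) and 0.20 for *Etv4* (0.0179). *Etv4* held 27.9% ± 0.47 (SD, n = 2) of the summed TPM of the 3 PEA3-type genes in WT and 40.3% ± 0.91 in the KO-labelled libraries, *Etv5* held 70.2% ± 0.49 and 57.8% ± 0.88, and *Etv1*, of whose exonic bases copies cover 47.2%, held 1.97% in both groups.

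*Egr1*, an immediate early gene that ERK switches on within minutes through the factors SRF and ELK, was the least abundant of the 10 in WT. Its normalized counts were 162 and 233 in WT and 401 and 353 in the KO-labelled libraries. Groups did not overlap, although the WT libraries differed widely from each other. The mean rose from 197 ± 50.4 to 377 ± 33.7 (SD, n = 2), which is 1.90-fold with a 95% interval from 1.39 to 2.60, with a DESeq2 adjusted p of 0.000374 (ENSMUSG00000038418.6, mm9 chr18:35020861-35024638, plus strand). The log2 fold change was 0.93 with all libraries, 0.70 without WT replicate 1 (adjusted p of 0.068) and 0.84 without KO replicate 1 (adjusted p of 0.0745). It was 1.22 without WT replicate 2 (0.00114) and 1.02 without KO replicate 2 (0.0195).

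**Figure D2:**
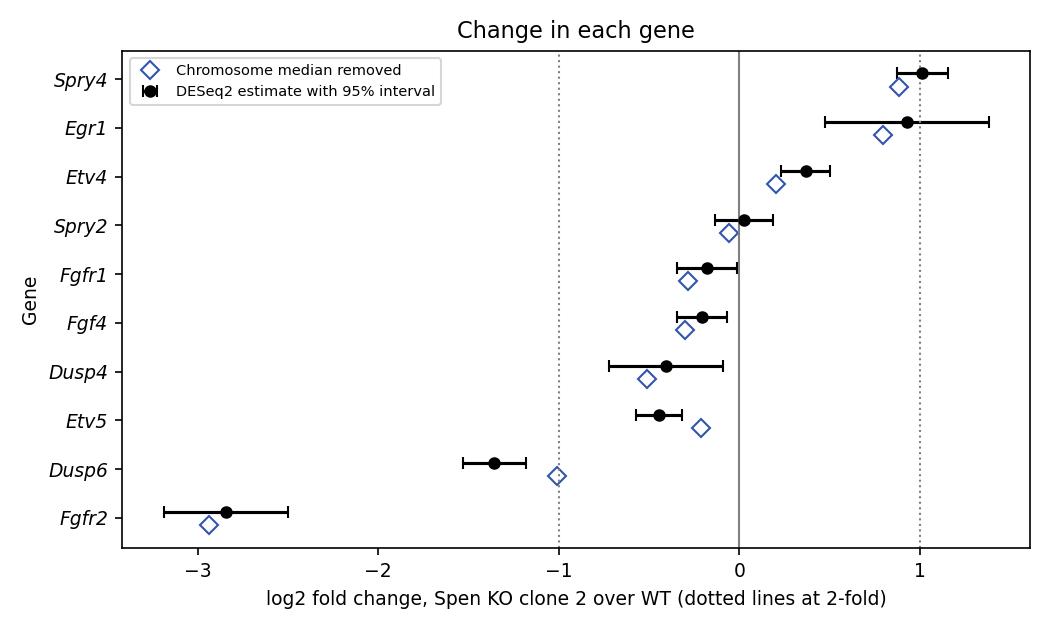
Log2 fold change of each gene, KO-labelled over WT, as a filled point with its 95% interval, with an open diamond for the value after the chromosome median was removed and dotted lines at 2-fold. *Fgfr2* and *Dusp6* lie beyond the lower line with and without that step, while *Spry4* sits on the upper line at 1.01 and moves inside it, to 0.88.

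**Figure D3:**
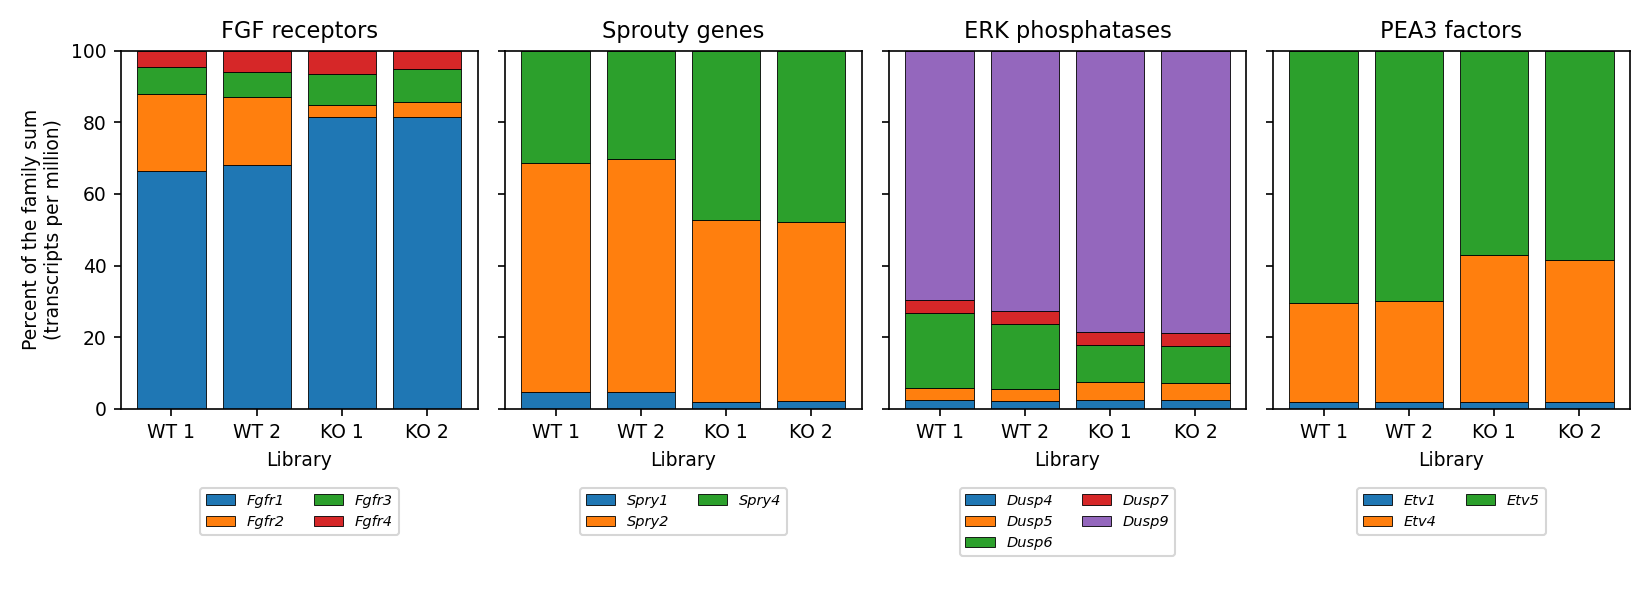
Share of each gene in the summed TPM of its family, as stacked bars from 0 to 100%, with 1 bar per library. In the KO-labelled libraries the band of *Fgfr2* shrinks from 19.1% or more to 4.40% or less, the bands of *Spry4* and *Etv4* widen, and that of *Dusp6* narrows.

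Compared per length within each library, the order of the 10 genes differed between the groups. In WT the mean levels were 190 TPM for *Etv5*, 174 for *Fgf4*, 94.6 for *Spry2*, 75.3 for *Etv4*, 55.5 for *Dusp6*, 45.2 for *Spry4*, 14.3 for *Fgfr1*, 6.91 for *Dusp4*, 4.31 for *Fgfr2* and 2.17 for *Egr1*, and no neighbours in that order overlapped. In the KO-labelled libraries *Fgf4* came first at 182 TPM, ahead of *Etv5* at 169. *Etv4* at 118 TPM and *Spry2* at 117 followed and overlapped each other, and *Spry4* at 111 TPM was close behind them. *Dusp6* at 26.2 TPM, which had been above *Spry4* in WT, was now well below it. *Fgfr1* at 15.2 TPM and *Dusp4* at 6.31 kept their places, whereas *Fgfr2*, at 0.724 TPM, came last, below *Egr1* at 5.03.

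The rest of the pathway was read from 5 gene lists that hold none of the 10. The list of other FGF ligands holds 21 FGF genes, among them homologous factors that are not receptor ligands. Of the 21, 10 could be tested, of which 0 rose and 2 fell (17.5% and 16.7% of all tested genes). By edgeR 1 was higher and 4 were lower (19.4% and 21.6% of all genes it tested). The median log2 fold change was -0.30. It ran from -0.38 to -0.17 when single libraries were left out and was -0.19 with the replicate number as a block. At an unadjusted p under 0.05 the DESeq2 counts were 1 higher and 3 lower (21.2% and 20.4% of all tested genes). *Fgf13*, which fell most, had normalized counts of 223 and 259 in WT and 115 and 84.5 in the KO-labelled libraries and a log2 fold change of -1.28. Its product belongs to the FGF homologous factors, which stay inside the cell and do not act through FGF receptors. The other gene of the list that fell was *Fgf17*, at a log2 fold change of -0.47 (DESeq2 adjusted p of 1.11e-05). Of 13 receptor and co-receptor genes 12 could be tested, of which 1 rose and 4 fell (17.5% and 16.7% of all tested genes). Their median log2 fold change was -0.23. Those that fell most were *Flrt3*, whose product binds FGF receptors at the membrane, and *Gpc4*, a glypican that carries heparan sulfate. *Flrt3* had normalized counts of 163 and 180 in WT and 50.5 and 45.4 in the KO-labelled libraries, and *Gpc4* had 3622 and 3778 against 1556 and 1602. A second model named *Flrt3* covers 15.1% of the exonic bases of *Flrt3*. The gene that rose, the heparan sulfate proteoglycan gene *Sdc4*, had a log2 fold change of 0.23 and did not pass when any 1 of the 4 libraries was left out (adjusted p of 0.086 to 0.218) or with the chromosome median removed (0.12, adjusted p of 0.291).

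Of 21 adaptors and kinases between receptor and ERK all 21 could be tested, of which 9 rose and 5 fell (17.5% and 16.7% of all tested genes). Their median log2 fold change was 0.12. With chromosome medians removed 6 rose and 2 fell, with a median of 0.064. Over all genes 2145 rose and 2563 fell in that fit, against 2926 and 2802 in the main fit. When any 1 of the 4 libraries was left out, 2 fell. *Gab1*, the docking protein that links receptors to SHP2 and PI3K, was the single gene past the thresholds of the study, with normalized counts of 10754 and 11172 in WT and 4641 and 4900 in the KO-labelled libraries and a log2 fold change of -1.20. The genes that rose most were *Shoc2*, which helps RAS activate RAF, at 0.61, and *Ksr1*, a scaffold for RAF, MEK and ERK, at 0.50. *Shoc2* lies on chromosome 19, whose median was 0.38, and with that median removed it stood at 0.23 (adjusted p of 0.0552). The MEK genes *Map2k1* and *Map2k2* were named after their values were seen. *Map2k1* rose, at a log2 fold change of 0.35, and *Map2k2* fell, at -0.28. *Map2k2* lies on chromosome 10, and with the median of that chromosome removed it stood at 0.064 (adjusted p of 0.626).

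Of 22 further negative regulators 21 could be tested, of which 6 rose and 9 fell, with a median log2 fold change of -0.20. Without single libraries the genes that rose numbered 3 (WT replicate 2) or 1 (each of the other libraries), and those that fell numbered 5 without WT replicate 2 or KO replicate 1 and 6 without KO replicate 2. *Lrig1*, a membrane inhibitor of receptor tyrosine kinases, fell most, from normalized counts of 1149 and 1101 in WT to 424 and 492 in the KO-labelled libraries, a log2 fold change of -1.29. *Pebp1*, which encodes an inhibitor of RAF, rose most, at a log2 fold change of 0.90, but near-identical copies cover 68.7% of its exonic bases and its count is uncertain. *Spred3*, a Sprouty-related gene, was at 0.58 (DESeq2 adjusted p of 0.0232) and did not pass without WT replicate 1 (0.362), KO replicate 1 (0.307) or KO replicate 2 (0.118), or with the chromosome median removed (0.0759).

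Of 26 immediate early and ETS factor genes 23 could be tested, of which 1 rose and 7 fell (17.5% and 16.7% of all tested genes). Their median log2 fold change was -0.16. It was -0.0875 with chromosome medians removed and ran from -0.25 to -0.12 when single libraries were left out. *Jun*, a subunit of AP-1, had normalized counts of 468 and 509 in WT and 106 and 140 in the KO-labelled libraries and a log2 fold change of -1.99. It shares 7.28% of its exonic bases with a gene on the other strand, as *Elk3* does with *Cdk17* (6.95%). *Elk3*, an ETS partner of SRF, had 660 and 639 against 322 and 319 and a log2 fold change of -1.02, of which -0.67 remained with the median of chromosome 10 removed. *Ier3*, the gene that rose, was at 0.49 and did not pass when any 1 of the 4 libraries was left out (adjusted p of 0.151 to 0.349). *Fos*, which like *Egr1* is switched on by ERK through SRF and was named after its values were seen, had normalized counts of 71.6 and 63.2 in WT and 52.2 and 49.3 in the KO-labelled libraries and did not pass the test (adjusted p of 0.524). The 95% interval of the log2 fold change of *Fos* ran from -1.26 to 0.45, and the difference between *Egr1* and *Fos* was not tested.

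**Figure D4:**
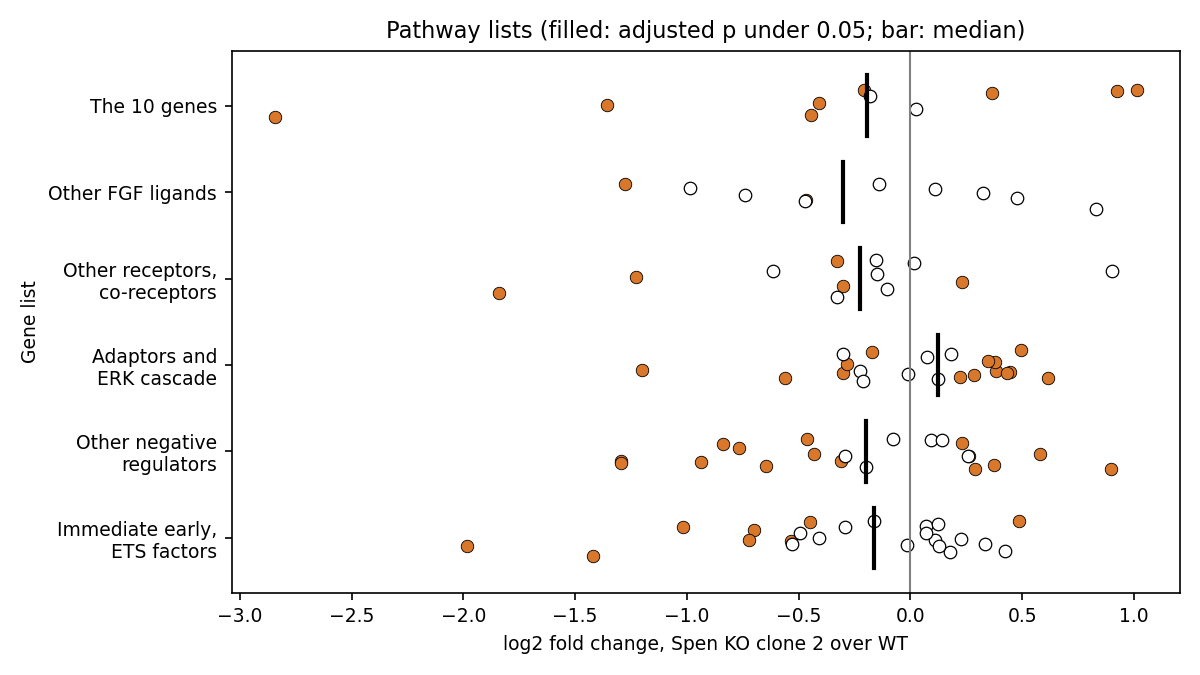
Log2 fold change, KO-labelled over WT, of every tested gene in the 10 and in the 5 other lists, with filled points for an adjusted p under 0.05 and a bar at each list's median. The medians run from -0.30 for the other FGF ligands to 0.12 for the adaptors and ERK cascade, and each list holds values on both sides of 0.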

How the data were processed

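RNA-seq libraries of WT and *Spen* KO clone 2 mESCs (2 each) were stranded and depleted of ribosomal RNA. Per the study's methods, paired 75-base reads were mapped to mm9 with STAR and assigned to GENCODE vM1 genes with featureCounts. The deposited values are raw counts per gene, with no normalization by the authors. Versions, the strand setting and the treatment of reads with several matches are not given in the sources used here. Overlap with other genes and near-identical copies (BLAST+ 2.17.0 against mm9) are therefore given for genes named in the text. The epiblast marker sum also holds *Dnmt3b*, with copies over 12.2% of its exonic bases, and *Pou3f1*, with 99.97% shared with another model of that name. For *Ksr1*, *Lrig1*, *Sox7*, *Tfap2a*, *Egr1*, *Col4a1*, *Gata6* and *Spen* they cover under 4% of exonic bases and are not given. Total counts were 36667685 and 43835004 in WT and 54715889 and 61908422 in the KO-labelled libraries.

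DESeq2 1.42.0 in R 4.3.3 tested group alone (Wald test, Benjamini-Hochberg adjustment over all genes), with two-sided p-values. Intervals are 95% Wald intervals. TPM was computed from the counts and exonic lengths. Counts were also simulated with 200 changed genes, all with a mean normalized count above 50, and with the spread estimated from these libraries. On them DESeq2 found 98% of 4-fold and 72% of 2-fold changes with 17 false calls among 14382 genes. The rates for genes with lower counts were not measured. Alternatives were edgeR 4.0.16, TMM factors, a filter of at least 10 counts in at least 2 libraries, no independent filtering, other thresholds, the replicate number as a block, removal of each chromosome's median, and leaving out each library. Nothing states that replicates are separate cultures, so p-values measure the spread between these libraries, which may be technical.

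The 10 genes and the other lists were chosen with earlier results of these data known. Beside the 10 genes, the text names from each pathway list the genes past the thresholds of the study (at most 4 per direction) or otherwise up to 2 per direction with an adjusted p under 0.05 by absolute log2 fold change, at a mean normalized count of at least 50, and the most abundant or moving markers. Other genes are said to be chosen after their values were seen. The same holds for markers named for their change, for *Fgf17* and *Dusp9*, named for their shares, and for *Fgfr3*, *Fgfr4*, *Spry1* and *Etv1*, named to complete families. Some markers are named only for copies or overlap.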

Additional observations from a re-analysis of the deposited data

How the results depend on the processing

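Over 10 alternatives, *Fgfr2*, *Dusp6*, *Spry4*, *Etv4* and *Etv5* kept their direction and their side of the adjusted p of 0.05. *Spry2*, which passed in none, changed sign with chromosome medians removed (-0.058) and without WT replicate 1 (-0.056), and was at 0.12 without WT replicate 2. *Fgfr1* passed with edgeR (adjusted p of 0.0353) and with chromosome medians removed (0.00453). *Dusp4* did not pass without independent filtering (0.0539).

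The replicate numbers of the groups share only a number. The correlation of deviations of same-numbered libraries was -0.018 over 13306 genes. With the replicate block, 3 of the 10 genes fell, *Fgf4* (0.114) and *Dusp4* (0.142) not passing, and genes higher at an adjusted p under 0.05 numbered 1870 in place of 2926 over all genes. In the block fit the receptor list had 0 higher, the ligand median was -0.19, the cascade had 3 lower, negative regulators had 2 higher and immediate early and ETS factors 0 higher.

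With chromosome medians removed, the median of the 10 genes was -0.25, 0 were higher at the study's thresholds, the ligand median was -0.38, the receptor list had 0 higher, the cascade 2 lower and negative regulators 1 higher. With edgeR, 0 of the 10 were higher at the study's thresholds, and ligands gave 1 higher and 4 lower. At 1.5-fold, 2 of the 10 were higher. Without independent filtering, immediate early and ETS factors had 0 higher.

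Leaving out each library in turn leaves a group with 1 library, whose spread is taken from the other group. Of the 10 genes, 3 to 4 fell, 2 to 3 rose and 0 to 1 were higher at the study's thresholds. Medians ran from -0.38 to -0.17 for ligands, from -0.24 to -0.15 for receptors, from 0.080 to 0.19 for the cascade and from -0.25 to -0.12 for immediate early and ETS factors. Receptors had 0 higher, the cascade 2 lower, negative regulators 1 to 3 higher and 5 to 7 lower, and immediate early and ETS factors 0 to 1 higher. Over all genes, 1555 to 1834 were higher and 1578 to 1739 lower, or 137 to 186 and 332 to 404 at the study's thresholds. These fits have fewer libraries, and the cause of the other changes was not tested.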
